A study of Mus musculus with 2 samples.

Results

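The genes described here are 47 mouse DNA damage repair genes, taken by symbol from a table of raw read counts for 46095 genes. They were listed by known function. They fall into 7 groups: 10 genes of homologous recombination, 6 of the Fanconi anaemia pathway, 4 of mismatch repair, 6 of base excision and single-strand break repair, 7 of nucleotide excision repair, 6 of end joining and 8 of break sensing and checkpoint signalling. All 47 were found in the table.

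The series compared cells that start leukaemia in a mouse acute myeloid leukaemia, sorted from the bone marrow of C57BL/6 mice aged 8 weeks as positive for Mac1 and c-Kit. It holds 2 libraries. One carries the genotype label wild type and a title ending in Scr, and the other carries the genotype label P2x7-KO and a title ending in KD. P2x7, the product of P2rx7, is a cation channel opened by extracellular ATP. How the leukaemia was made and which allele or agent the P2x7-KO label refers to are not stated in the sources used here. The number of mice that went into each library is not stated either.

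Cells repair DNA by several routes that differ in the lesion they act on. Base excision repair cuts out single damaged bases, nucleotide excision repair removes bulky lesions, and mismatch repair corrects errors of replication. Double-strand breaks are rejoined directly by end joining, or copied from the sister chromatid by homologous recombination in cells that have replicated their DNA. The Fanconi anaemia pathway unhooks crosslinks between strands, and the kinases ATM and ATR report damage to the cell cycle machinery. Dividing blood progenitors depend on these routes, and inherited loss of Fanconi genes causes bone marrow failure.

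With 1 library per group, no test between the genotypes was possible and no p-value is given. Each difference is given as a fold between scaled counts, with the library labelled P2x7-KO set over the library labelled wild type. The exact 95% interval beside it holds counting error alone and leaves out how mice, sorts or library preparations vary. The former library held 12435916 counts and the latter 12456212. A gene is called higher or lower when its ratio was at least 2 in that direction and its interval excluded 1. Calls were made among the 13363 genes that reached 20 counts when both libraries were summed. CPM is the count per 1000000 on the TMM scale, which corrects the library totals for differences in composition. In bulk libraries, fewer cells of a type and less RNA per cell cannot be told apart.

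P2rx7 went against its label, with 229 counts under the wild type label and 543 under the P2x7-KO label (18.8 against 42.6 CPM). The libraries are therefore named by their labels throughout, and a direction below is a direction between labels. Where a pair of values is given, the one under the wild type label comes first. Reads per gene do not show which exons were covered. The sort genes were present in both libraries, Kit at 559 against 861 counts and Itgam at 2274 against 6910, although 68.67% of the exonic bases of Itgam are shared with Gm49368. Of 12 monocyte and macrophage markers, 9 were called higher and 0 lower under the P2x7-KO label, with summed levels of 2271 against 5284 CPM and no marker at 0 in either library. Summed counts of 8 erythroid markers were 16 against 138, with Epor and Ermap at 0 under the wild type label. Those of 8 B lymphoid markers were 1603 against 1264, with Ms4a1 and Pax5 at 0 under the wild type label. Those of 8 T and NK lymphoid markers were 434 against 175, which came from Nkg7 (307 against 105) and Il7r (117 against 30), while Ccl5 had 7 against 19. Cd3e and Cd8a were at 0 under the wild type label. The part of these markers in the repair gene values was not tested.

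Few repair genes differed between the libraries by the 2-fold rule. Of the 47 genes, 46 had at least 20 counts, and Xrcc5 did not. Among those 46, 1 was called higher in the P2x7-KO-labelled library (Lig4, the ligase of end joining) and 1 was called lower (Apex1, the main nuclease that cuts at sites where a base has been lost). The remaining 44 were neither. Over all 13363 genes counted, 19.8% were called, 10.8% higher and 8.95% lower. The median log2 ratio of the 46 was -0.02, beside 0.00 for all genes counted. Together the 47 genes took 0.251% (0.248 to 0.254, Clopper-Pearson) of the counts in the wild-type-labelled library and 0.235% (0.233 to 0.238) in the other.

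**Figure D1:**
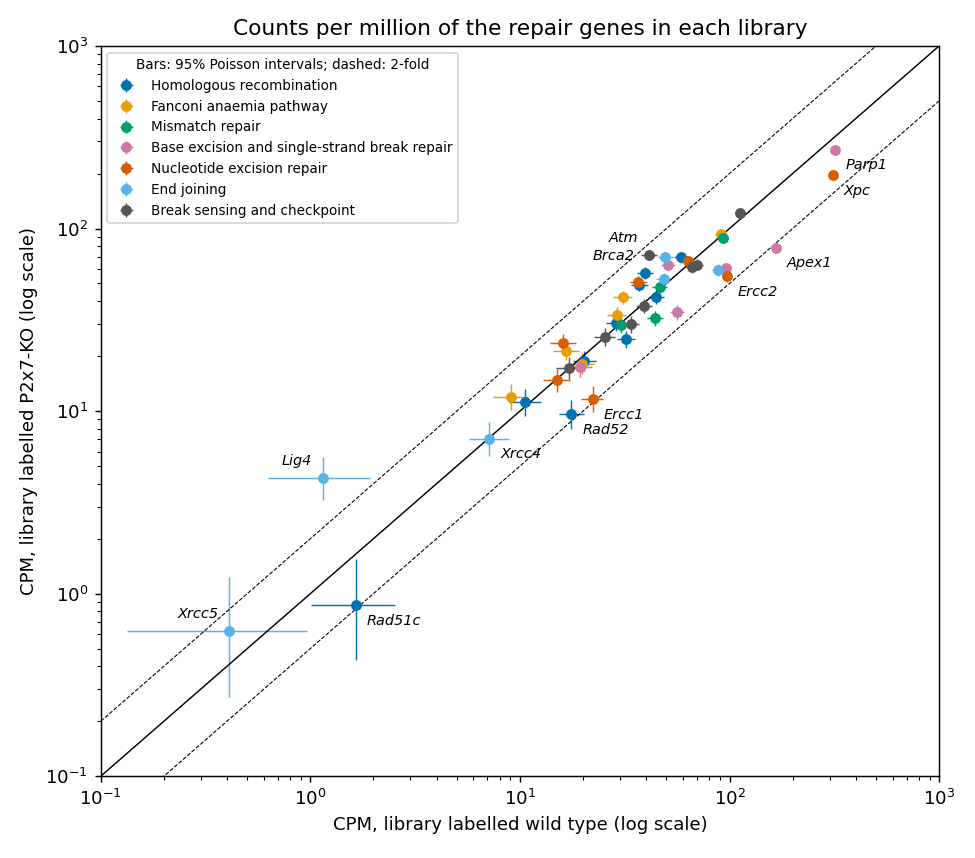
Level of each of the 47 repair genes in CPM, in the wild-type-labelled library (x axis, log scale) and the P2x7-KO-labelled library (y axis, log scale), coloured by pathway. Bars are 95% Poisson intervals, the solid line marks equality and the dashed lines 2-fold. Lig4 lies above the upper dashed line with an interval clear of equality, Apex1 lies just below the lower one, and Xrcc5 and Rad51c sit at very low levels.

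At a lower threshold of 1.5-fold, with the interval again excluding 1, 2 of the 46 were higher (Lig4 and Atm), or 4.35%, beside 21.1% of all genes. Lower by that rule were 7, or 15.2%, beside 18.9% of all genes. The 7 were Apex1, Ung, Xrcc1, Xpc, Ercc1, Ercc2 and Rad52. Of the 13 genes of both excision routes together, 6 were lower at 1.5-fold and 0 higher, while of the 33 genes outside them 1 was lower and 2 were higher. This split by route was drawn after the values were seen. In the wider list described at the end, the same rule gave 3 higher and 1 lower of 18 other base excision genes and 1 higher and 3 lower of 14 other nucleotide excision genes. Once ratios were adjusted for transcript length and GC content, as described later, intervals lay below 1 for 53.8% of the 13 genes and 63.6% of the 33.

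Apex1 (ENSMUSG00000035960.14, chromosome 14 from 50924968 to 50927139, plus strand, mm10, GENCODE M21) had 2022 counts in the wild-type-labelled library and 1002 in the P2x7-KO-labelled library. On the CPM scale this was 166 (159 to 174) against 78.7 (73.9 to 83.7), 2.11-fold lower (1.96 to 2.28). The Poisson intervals of the libraries did not overlap. Exons of Tmem55b on the opposite strand cover 61.67% of the exonic bases of Apex1, and the strand setting of the counting is not stated in the sources used here, so reads of the pair cannot be told apart. Tmem55b went the other way, with 672 against 856 counts (1.22-fold, 1.10 to 1.35). Osgep, which is transcribed away from Apex1 across a short gap, had 832 against 607 counts.

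The stretch between the GENCODE exons of Osgep and Apex1 is shown because it leads into the only one of the 47 genes called lower. RefSeq places the start of Apex1 within it. It spans 74 bases on the plus strand (chr14:50924894-50924967, GRCm38.p6, RefSeq), with CCAAT boxes and a GC box, GGGCGG, in capitals.
Apex1: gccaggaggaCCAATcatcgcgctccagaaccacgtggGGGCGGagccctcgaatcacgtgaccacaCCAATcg
These 3 matches describe letters and not bound factors.

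Base excision and single-strand break repair was the group with the lowest median, a log2 ratio of -0.45. Of its 6 genes, 1 was called lower, 0 higher and 5 neither, while 4 had an interval wholly below 1 and 1 wholly above. The summed counts of the group were 8589 in the wild-type-labelled library and 6681 in the other, a ratio of 0.743 (0.720 to 0.767), with Apex1 and Parp1 giving most of them. Ung, the glycosylase that removes uracil from DNA, stood at 56.1 (52.0 to 60.5) against 34.7 CPM (31.5 to 38.1), 1.62-fold lower (1.43 to 1.83). Xrcc1, the scaffold of single-strand break repair, stood at 96.4 (91.0 to 102) against 60.5 CPM (56.3 to 64.9), 1.59-fold lower (1.45 to 1.75).

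The remaining members of that group were nearer to equality. Parp1, which binds strand breaks and marks them with ADP-ribose chains, had 3856 against 3444 counts, the most of the 47 genes in either library. Its levels were 317 (307 to 327) and 270.5 CPM (262 to 280), 1.17-fold lower (1.12 to 1.23). Lig3, the ligase that XRCC1 binds, was the only member above equality, at 619 against 800 counts (1.23-fold, 1.11 to 1.37). Exons of Rffl on the opposite strand cover 25.07% of the exonic bases of Lig3, and Rffl had 613 against 944 counts. Ogg1, the glycosylase for oxidised guanine, had 236 against 223 counts, with an interval that included 1.

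Nucleotide excision repair had members on both sides of equality. None of its 7 genes was called higher or lower, 3 had intervals below 1 and 2 above, and the median log2 ratio was -0.03. Summed counts were 6830 against 5340, a ratio of 0.747 (0.720 to 0.774), which rested largely on Xpc. Xpc, the sensor of distorted helices, had 3786 against 2511 counts. Its levels were 311 (301 to 321) and 197 CPM (190 to 205), 1.58-fold lower (1.5 to 1.66). Ercc1, the partner subunit of the XPF nuclease, had the lowest ratio of the group, with 270 against 149 counts (22.2 against 11.7 CPM, 1.90-fold lower, 1.55 to 2.33).

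Ercc2, which encodes the XPD helicase of TFIIH, had 1181 against 697 counts (1.77-fold lower, 1.61 to 1.95). Exons of other genes overlap 42.69% of its exonic bases, most of them on the opposite strand. The gene with the highest ratio of the group was Ercc5, which encodes the XPG nuclease, at 195 against 302 counts (16.0 against 23.7 CPM, 1.48-fold, 1.23 to 1.78). Ercc4, which encodes the XPF nuclease, had 446 against 652 counts (1.40-fold, 1.24 to 1.58). Xpa and Ercc3 had intervals that included 1.

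**Figure D2:**
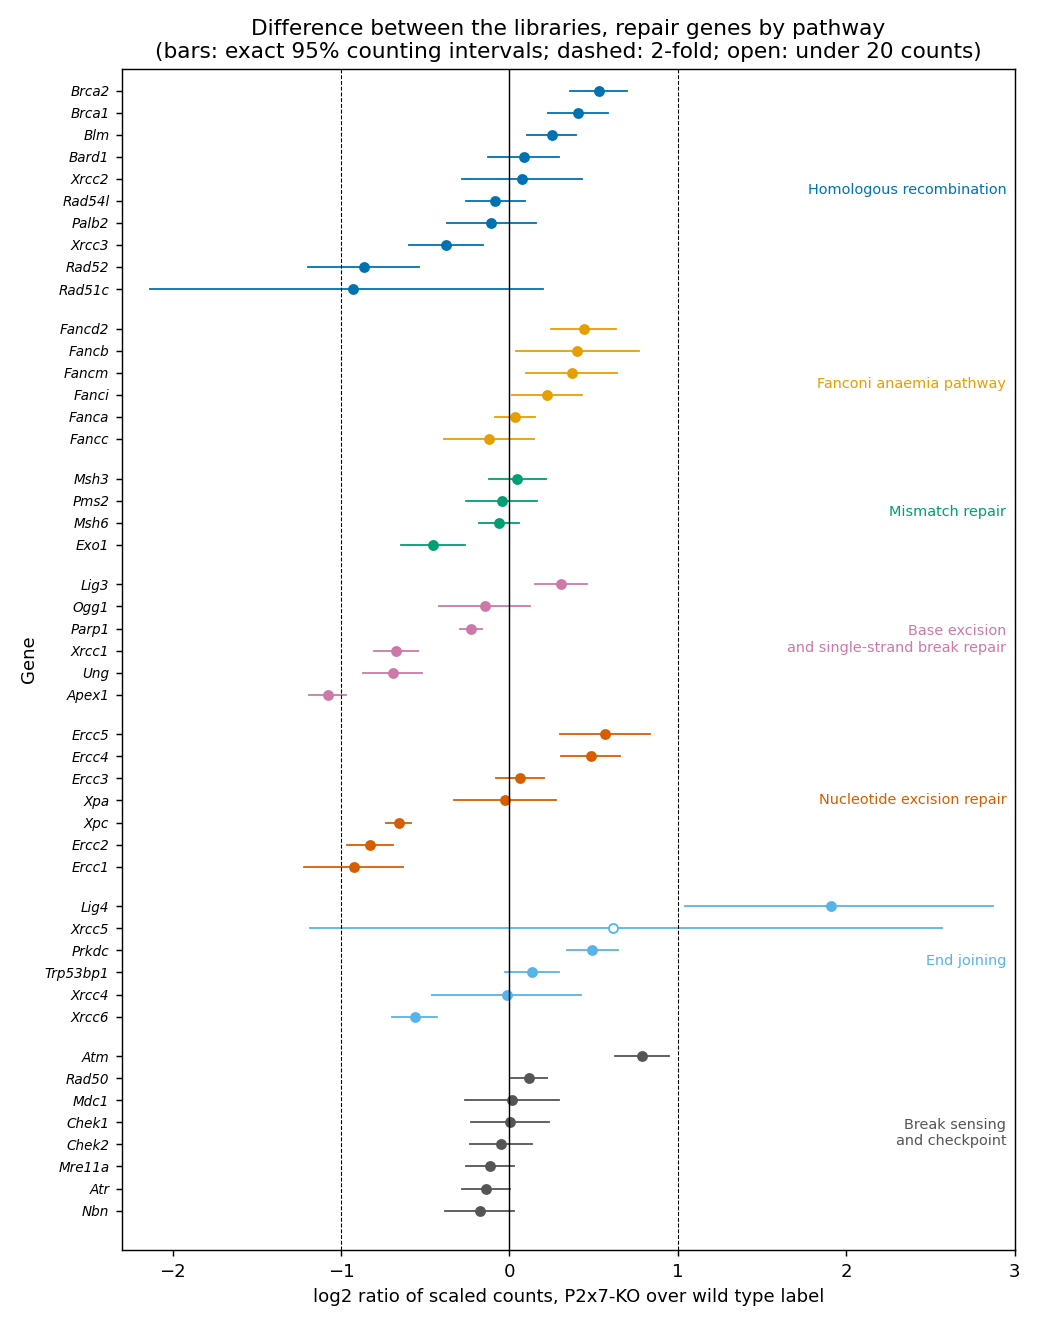
Log2 ratio of scaled counts, the P2x7-KO-labelled library over the wild-type-labelled library (x axis), for the 47 repair genes by pathway (y axis). Points are ratios, bars are exact 95% counting intervals, dashed lines mark 2-fold, and the open point is Xrcc5, which had under 20 counts. Lig4 and Apex1 are the only genes past a dashed line with an interval that excludes 0, and 6 of the 13 excision repair genes lie 1.5-fold or more to the left.

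In homologous recombination, 0 of 10 genes were called in either direction, and the median log2 ratio was -0.01. Brca2, which acts on resected ends, had the highest ratio of the group. It had 481 counts in the wild-type-labelled library and 727 in the other, 39.5 (36.1 to 43.2) against 57.1 CPM (53.0 to 61.4), 1.44-fold higher (1.28 to 1.62). Brca1, which promotes resection and recruits BRCA2 through PALB2, had 452 against 628 counts, 37.2 (33.8 to 40.7) against 49.3 CPM (45.5 to 53.3), 1.33-fold (1.17 to 1.501). Blm, the helicase mutated in Bloom syndrome, was the third gene with an interval above 1, at 710 against 884 counts.

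Rad52, an annealing factor, and Xrcc3, which acts in strand exchange, had intervals below 1. The counts of Rad52 were 214 against 123, 17.6 (15.3 to 20.1) against 9.66 CPM (8.03 to 11.5), 1.82-fold lower (1.45 to 2.29). Xrcc3 had 391 against 315 counts (1.30-fold lower, 1.12 to 1.51). The lowest ratio of the group was that of Rad51c, whose product forms a complex with that of Xrcc3, but on 20 against 11 counts its interval ran from 1.15-fold higher to 4.40-fold lower. Palb2, Bard1, Rad54l and Xrcc2 had intervals that included 1, with log2 ratios between -0.11 and 0.08.

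The Fanconi anaemia group had the highest median, a log2 ratio of 0.30, although 0 of its 6 genes were called. Of the 6, 5 lay above equality and 4 had intervals wholly above 1. Fancd2, the subunit that is ubiquitinated at crosslinks, had the highest ratio, with 376 against 534 counts, 30.9 (27.9 to 34.2) against 41.9 CPM (38.5 to 45.6), 1.36-fold higher (1.19 to 1.55). Its partner Fanci had 352 against 430 counts (1.17-fold, 1.01 to 1.35). Of the core complex genes, Fancb and Fancm stood at 1.32-fold (1.03 to 1.70) and 1.29-fold (1.07 to 1.56), and the interval of Fanca included 1. Fancc, also of the core complex, had the lowest ratio, with 241 against 232 counts (1.09-fold lower, 0.904 to 1.31).

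Mismatch repair lay at equality apart from Exo1. None of its 4 genes was called, and the median log2 ratio was -0.05. Exo1, the exonuclease that removes the strand carrying the error, had 538 against 411 counts, 44.2 (40.6 to 48.1) against 32.3 CPM (29.2 to 35.6), 1.37-fold lower (1.20 to 1.56). Msh3, a mismatch sensor subunit, had the highest ratio, with 565 against 611 counts (1.03-fold, 0.920 to 1.16). Msh6, its counterpart in the other sensor, had 1128 against 1131 counts, and Pms2 had 371 against 376.

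End joining held the repair gene furthest from equality. Lig4 (ENSMUSG00000049717.9, chromosome 8 from 9969049 to 9977686, minus strand, mm10, GENCODE M21) had 14 counts in the wild-type-labelled library and 55 in the P2x7-KO-labelled library. Its levels were 1.15 (0.629 to 1.93) and 4.32 CPM (3.25 to 5.62), 3.75-fold higher (2.06 to 7.31). The intervals of the libraries did not overlap, but both levels were low for a repair gene. Abhd13, whose start site lies beside that of Lig4 on the other strand, had 143 against 226 counts (1.51-fold, 1.22 to 1.88).

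The other end joining genes lay closer to equality, and the group median was 0.13 over 5 genes. Prkdc, the catalytic subunit of DNA-PK, had 602 against 886 counts, 49.5 (45.6 to 53.6) against 69.6 CPM (65.1 to 74.3), 1.41-fold higher (1.27 to 1.56). Xrcc6, which encodes the Ku70 subunit that holds broken ends, had the lowest ratio, with 1067 against 756 counts (87.7 against 59.4 CPM, 1.48-fold lower, 1.34 to 1.62). Trp53bp1, which shields ends from resection, and Xrcc4, the partner of LIG4, had intervals that included 1. Xrcc5, which encodes the Ku80 partner of Ku70, had 5 and 8 counts, so its ratio could not be set apart from equality (1.53-fold, 0.441 to 5.94).

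Among break sensing and checkpoint genes, 0 of 8 were called, and the median log2 ratio was -0.02. Atm, the kinase activated by double-strand breaks, had 505 against 911 counts, 41.5 (38.0 to 45.3) against 71.5 CPM (67.0 to 76.3), 1.72-fold higher (1.54 to 1.93). Atr, the kinase that answers to single-stranded DNA, had 850 against 808 counts, with an interval that just included 1. The subunits of the MRN complex, which binds broken ends, lay between log2 ratios of -0.18 (Nbn, the lowest of the group, 410 against 380 counts) and 0.12 (Rad50, 1363 against 1548), with Mre11a at -0.12. Chek1, Chek2 and Mdc1 had log2 ratios between -0.05 and 0.01, all with intervals that included 1.

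Genes whose proteins share a complex or have related roles did not always stand in the same relation to each other in both libraries. The 14 such pairs were chosen from textbook knowledge with the values already known. Atm and Atr, which encode separate kinases, and Ung and Apex1, for base removal and incision, are not pairs within 1 complex. In each pair, the ratio of one gene was divided by that of the other, which cancels the scaling. Ercc4 against Ercc1 gave 2.65 (2.08 to 3.37), from 446 against 652 counts of Ercc4 and 270 against 149 of Ercc1. Per kilobase of the longest transcript, Ercc4 and Ercc1 stood at 7.15 and 16.1 CPM in the wild-type-labelled library. In the other library they stood at 9.98 and 8.51. Lig3 against Xrcc1 gave 1.97 (1.71 to 2.27), Ercc3 against Ercc2, both of TFIIH, 1.85 (1.61 to 2.13), and Atm against Atr 1.90 (1.64 to 2.20). Prkdc against Xrcc6, both of DNA-PK, gave 2.08 (1.80 to 2.39). The pair furthest apart was Lig4 against Xrcc4, at 3.78 (1.90 to 7.91).

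In the other pairs with enough counts for both partners, the ratio was nearer to 1. Fancd2 against Fanci gave 1.16 (0.954 to 1.42) and Brca1 against Bard1 1.25 (1.03 to 1.52). Brca2 against Palb2 gave 1.56 (1.25 to 1.93) and Ung against Apex1 1.31 (1.13 to 1.51). Rad50 stood 1.18 (1.04 to 1.33) from Mre11a and 1.23 (1.04 to 1.44) from Nbn. For Xrcc5 against Xrcc6 and Xrcc3 against Rad51c the counts of 1 partner were too few, and the ratios were 2.26 (0.648 to 8.80) and 1.46 (0.657 to 3.44). With the adjustment for transcript length and GC content described next, Ercc4 against Ercc1 came to 1.48, Lig3 against Xrcc1 to 1.13, Prkdc against Xrcc6 to 1.10 and Brca2 against Palb2 to 0.996. Xrcc3 against Rad51c came to 2.24. Atm against Atr at 1.86, Ercc3 against Ercc2 at 1.69 and Lig4 against Xrcc4 at 3.22 moved less.

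Repair genes above equality had longer transcripts than those below. The 14 repair genes with intervals above 1 had longest transcripts of 5333 bases in the median, and the 11 with intervals below 1 had 3296 bases. Their median GC contents were 45.0% and 52.7%. Split at equality alone, the 22 repair genes above had a median of 5141.5 bases and the 24 below 3487.5. The same held over counted genes with a known length, where those above equality had a median of 3949 bases and those below 2351. Across the 46 repair genes the rank correlation of length with the log2 ratio was 0.57, and across 12360 genes it was 0.44. These are descriptions across genes of the same 2 libraries, and genes are not independent replicates.

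**Figure D3:**
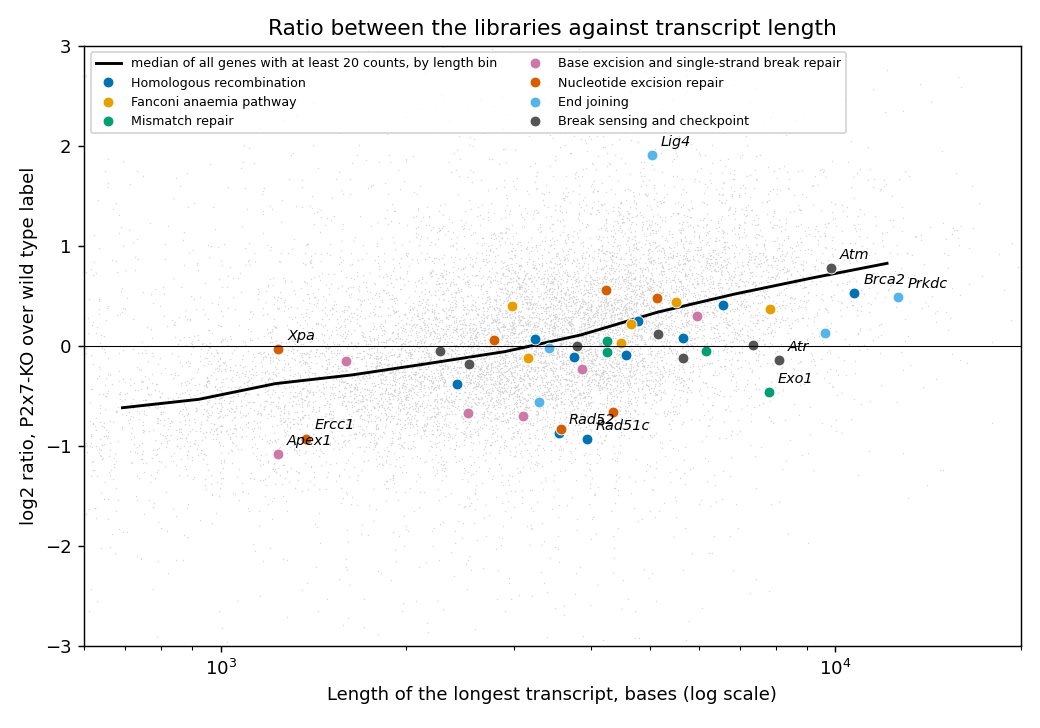
Log2 ratio between the libraries (y axis) against the length of the longest GENCODE M21 transcript (x axis, log scale). Grey points are genes with at least 20 counts and a GENCODE transcript that fall inside the axes, and coloured points are the 46 repair genes by pathway. The black line is the median of such genes in length bins, with genes beyond the y axis included. The black line rises with length, long genes such as Atm, Brca2 and Prkdc lie near or below it, and Lig4 lies far above it.

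Because of that, each log2 ratio was also expressed relative to a smooth fit on length and GC content over 12374 genes with a GENCODE transcript. On that scale the median of the 46 repair genes was -0.28, beside -0.01 for all genes. Wholly below 1 were the intervals of 28 of the 46 (60.9%, beside 33.2% of all genes), and wholly above were 3 (6.52%, beside 31.4%). Before adjustment these shares were 23.9% below and 30.4% above, beside 34.7% and 35.6% of all genes. In all, 19 of the 46 changed sign. In the wider list described at the end, the adjusted median was -0.11, with 41.1% of intervals below 1 and 26.2% above. The intervals were shifted with the ratios and do not cover the error of the fit.

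The adjustment moved the pathways by different amounts. The Fanconi median went from 0.30 to -0.03, that of homologous recombination from -0.01 to -0.29, of break sensing and checkpoint from -0.02 to -0.33, and of end joining from 0.13 to -0.34. Mismatch repair went from -0.05 to -0.39, while base excision went from -0.45 to -0.27 and nucleotide excision from -0.03 to 0.16. Base excision had the lowest median as counted, and mismatch repair the lowest in this fit. With length alone in the fit, base excision stayed the lowest at -0.47, beside -0.38 for mismatch repair. Xpc and Ung kept adjusted log2 ratios of -0.76 (-0.83 to -0.68) and -0.74 (-0.91 to -0.56). The wider list did not keep this order of pathways. Adjusted for length and GC content, its medians were 0.02 for mismatch repair, -0.03 for base excision and -0.23 for nucleotide excision. Those of homologous recombination, Fanconi, end joining and checkpoint genes were -0.25, -0.01, -0.09 and -0.08.

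Single genes moved with them. Brca1, Brca2, Prkdc and Atm, all above equality as counted, had adjusted log2 ratios of -0.15 (-0.32 to 0.03), -0.30 (-0.46 to -0.13), -0.34 (-0.49 to -0.19) and -0.02 (-0.17 to 0.14). Lig4 stayed called higher at 1.41 (0.54 to 2.37), while Apex1 came under 2-fold at -0.72 (-0.83 to -0.61). On that scale 4 of 46 were called, beside 13.7% of all genes: 3 lower (Rad51c, Rad52 and Exo1), beside 5.59%, and 1 higher, beside 8.07%. With length alone in the fit, Exo1 was the only one called lower, beside 5.97% of all genes, and Lig4 the only one called higher, beside 8.3%. Exo1 stood at -1.07 (-1.26 to -0.88), Rad52 at -1.05 (-1.38 to -0.72) and Rad51c at -1.22 (-2.42 to -0.09). Atr came close behind, at -0.91 (-1.05 to -0.77).

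**Figure D4:**
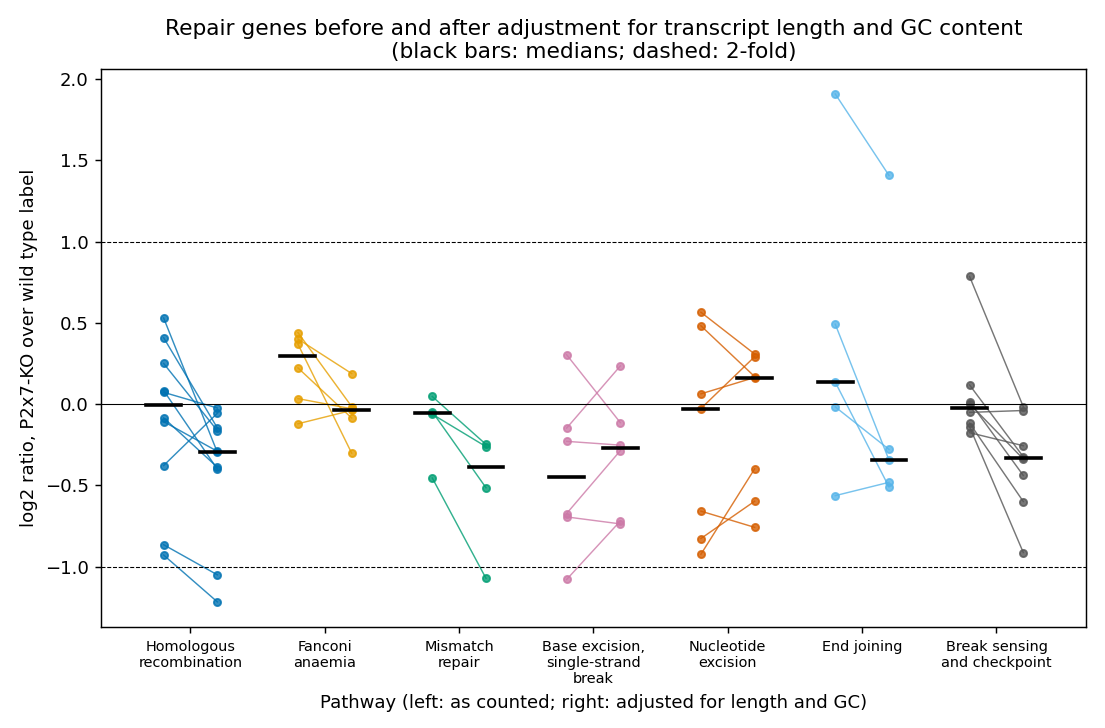
Log2 ratio between the libraries (y axis) of the 46 repair genes by pathway (x axis), as counted (left point of each line) and adjusted for transcript length and GC content (right point). Black bars are group medians and dashed lines mark 2-fold. Most lines outside the excision groups slope downward, and the Fanconi median drops from 0.30 to -0.03.

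Many repair genes are transcribed in S phase under E2F factors, and proliferation genes were therefore set beside them. Of 25 proliferation genes, among them Mki67, Top2a and the Mcm helicase subunits, 0 were called in either direction. Over all genes counted, 10.8% were called higher and 8.95% lower. The median log2 ratio of the 25 was -0.11, and -0.19 on the adjusted scale. As counted, intervals lay above 1 for 28% of them and below 1 for 48%, beside 35.6% and 34.7% of all genes. Adjusted intervals lay below 1 for 64% of them and above 1 for 20%, beside 33.2% and 31.4% of all genes. Their summed levels were 5517 CPM in the wild-type-labelled library and 5399 CPM in the other.

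The promoter table from RefSeq (GRCm38.p6, 250 bases before to 50 after each start) held 39 of the 47 genes. Nbn, Xrcc2, Ercc3, Fancd2, Prkdc, Exo1, Xpc and Rad50 were not matched. Motifs were searched on both strands, and a gene with both E2F cores was counted once. An E2F core, TTCCCGC or TTGGCGC, occurred for 20 of the 39, or 51.3%. It occurred for 14.5% of 8732 mRNA genes with at least 20 counts and for 7.79% of all 27025 genes with a promoter. The 20 included 5 of 9 homologous recombination genes, 3 of 5 Fanconi genes, 3 of 3 mismatch repair genes and 1 of 6 base excision genes. The rest were 4 of 6 break sensing and checkpoint genes, 2 of 5 end joining genes and 2 of 5 nucleotide excision genes. The CCAAT box occurred for 61.5% and 43.5% of the same sets, the GC box GGGCGG for 74.4% and 68.8%, and TTTGAA, the core of the cell cycle homology region, for 5.13% and 14.2%.

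Homologous recombination and Fanconi genes with an E2F core that begins upstream of the start are shown because these routes act on replicating DNA. The upper of the Rad51c cores shown runs across the start. Brca1 and Fanci hold theirs after the start. Each window of 27 bases is from the strand of the gene, and the capitals mark the core or its reverse complement.
Bard1, chr1:71103164-71103190, minus strand: gccgctcagtTTCCCGCtcaggaagtt
Brca2, chr5:150522443-150522469, plus strand: ttaggccacaGCGGGAAacagacacac
Rad51c, chr11:87404943-87404969, minus strand: ccccgcgaggGCGGGAAaagcaagggg
Rad51c, chr11:87405006-87405032, minus strand: gcgcgcgtggGCGCCAAccactcccta
Rad52, chr6:119902556-119902582, plus strand: tgctgcggctGCGGGAAggctgatcgc
Fancb, chrX:164980410-164980436, plus strand: cggggtagagGCGGGAAtaagtgctct
Fancm, chr12:65075539-65075565, plus strand: accaatcatcTTCCCGCcgcaaaatcg
Genes with such a core lay on both sides of equality. The 20 with a core, 11 of them above equality, had a median log2 ratio of 0.01 and the 18 counted genes without one had -0.11. Adjusted for length and GC content, these medians became -0.30 and -0.21. Within the windows shown, Brca2 stood at 1.44-fold higher and Rad52 at 1.82-fold lower.

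Levels of different genes were compared per kilobase of the longest transcript. The median over the 46 genes was 7.84 CPM per kilobase in the wild-type-labelled library and 8.17 in the other. Apex1 (134 and 63.5), Parp1 (81.8 and 69.8) and Xpc (71.6 and 45.4) were the highest 3 in the wild-type-labelled library. With the median transcript length of each gene the median levels were 26.5 and 26.7, so values per kilobase depend on the transcript chosen. Xrcc5, Lig4 and Rad51c were the lowest 3 by either length. Xrcc5 stood at 0.161 and 0.246 CPM per kilobase, above 0.80% of mRNA genes counted, and its partner Xrcc6 at 26.6 and 18.0.

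A wider list of 111 other repair genes was taken by pathway, with earlier results of these libraries known but not by how its genes moved. Of these, 109 were found by name and 107 had at least 20 counts. Called higher were 5 and called lower 2, again beside 10.8% and 8.95% of all genes, and the median log2 ratio was -0.07. The higher ones were Mlh3, a mismatch repair factor (73 against 232 counts, 3.04-fold, 2.32 to 4.01), Uvssa, which acts in transcription-coupled repair (308 against 829, 2.57-fold, 2.25 to 2.94), the uracil glycosylase Smug1 (88 against 189, 2.05-fold, 1.59 to 2.67), and 2 genes of damage tolerance. Of the latter, Shprh, a ubiquitin ligase for PCNA, had 221 against 521 counts (2.25-fold, 1.92 to 2.65). Rev3l, the catalytic subunit of polymerase zeta, had 358 against 829 (2.21-fold, 1.95 to 2.51).

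The lower ones were Faap100, of the Fanconi core complex, with 530 against 254 counts (2.18-fold lower, 1.88 to 2.55), and Alkbh2, a demethylase that reverses alkylated bases, with 186 against 83 (2.35-fold lower, 1.80 to 3.08). Exons of Usp30 on the opposite strand cover 29.51% of the exonic bases of Alkbh2. On the adjusted scale only 1 of these 7, Mlh3 at a log2 ratio of 1.09, was still past 2-fold, and Polm, a polymerase of end joining, also passed at 1.05. By pathway, the median log2 ratios of the wider list were -0.20 for 26 homologous recombination genes and -0.16 for 12 Fanconi genes, while the listed 10 and 6 had -0.01 and 0.30. For base excision they were -0.08 over 18 genes, beside -0.45 for the listed 6, and the scaled sum gave a ratio of 0.977 (0.952 to 1.003). Nucleotide excision stood at -0.10 over 14 genes, beside -0.03 for the listed 7. The medians were above equality for 4 mismatch repair genes at 0.16, 6 end joining genes at 0.31 and 15 break sensing and checkpoint genes at 0.19, beside -0.05, 0.13 and -0.02 for the listed ones. The highest was 0.37, for 12 genes of translesion synthesis and direct reversal.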

How the data were processed

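RNA was sequenced in 2 libraries, 1 per genotype label. The authors deposited raw counts per gene. The submitters' processing notes name the aligner HISAT2 2.0.4 and the build mm10, with no settings. Which program counted the reads, with which annotation and strand setting, is not stated in the sources used here. Samples were matched to columns by title, and 0 columns were left out.

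Counts were scaled with TMM (edgeR 4.0.16, R 4.3.3). Ratio intervals come from the Clopper-Pearson interval of the P2x7-KO label's part in each gene's summed counts, and pair intervals are exact conditional odds ratio intervals (scipy 1.17.1). Reads are not independent molecules, so intervals cover counting error only. A gene at 0 is limited to 0.247 and 0.236 CPM (3 counts). For medians of log2 ratios as counted 0.5 was added to each count, except in the comparison by E2F core. Adjusted medians in the Results had nothing added, and those in the section on dependence on the processing had 0.5 added. Adjustment used a robust regression (statsmodels 0.14.6) on splines of log2 length and GC content of the longest GENCODE M21 transcript. Promoters came from RefSeq (GRCm38.p6), and a gene with several counted once. Scripts were tested on simulated data. Alternatives were total count, DESeq2 1.42.0 and upper quartile scaling, count minimums of 10, 50 and 1, 1.5-fold, 99% intervals and length alone. Of 111 wider-list names, 2 (Hrob and Babam2) were not matched.

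The members and lists were chosen with earlier results of these data known. Values are given for members past the call rule, the highest and lowest ratio of each group, and Brca1, Brca2, Atm, Parp1 and Prkdc. Up to 2 wider-list genes per pathway and direction are named. Members named beyond this, and Polm, were chosen after their values were seen, and so was the adjustment of pairs.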

Additional observations from a re-analysis of the deposited data

How the results depend on the processing

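No paired analysis was possible because each group holds 1 library with no replicate number, and for the same reason none could be left out. The calls of Lig4 and Apex1 held under the other scalings and count minimums and with 99% intervals. Under those scalings and minimums each pathway median stayed inside the median counting interval of its genes. Total count scaling moved the median of all genes by 0.07 on the log2 scale and put 27 of 46 members above equality, against 22. At 1.5-fold, 2 members were higher and 7 lower, and of the wider list 19 and 13. Adjustment for length alone, for length and GC content, and for both in the longest protein-coding transcript (added after seeing the data) changed more. The cause was not tested. Intervals above 1 numbered 4, 3 and 3 and below 1 22, 28 and 29. Members called lower numbered 1, 3 and 2, and genes of the wider list 1, 2 and 1 higher and 1, 0 and 1 lower. The median of the members was -0.28 with GC content and -0.32 in the protein-coding form. Medians under length alone were -0.087 (Fanconi), -0.38 (mismatch), -0.24 (end joining), -0.24 (homologous recombination), -0.17 (checkpoint), -0.47 (base excision) and 0.12 (nucleotide excision), the last 4 inside the counting interval as counted. With GC content they were -0.29 (homologous recombination), -0.034 (Fanconi), -0.39 (mismatch), -0.27 (base excision), -0.34 (end joining) and -0.33 (checkpoint). In the protein-coding form they were -0.092 (Fanconi), -0.41 (mismatch), -0.32 (base excision), -0.36 (end joining) and -0.40 (checkpoint). Levels per kilobase of the median transcript length were 26.5 and 26.7 in the median. The depth limits Xrcc5, Rad51c and Lig4 most.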

Other observations

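Xrcc5 had 5 and 8 counts, while Xrcc6, whose product forms the Ku heterodimer with that of Xrcc5, had 1067 and 756. GENCODE M21 lists 0% of the exonic bases of Xrcc5 as shared with another gene. Rad51c and Lig4 were the next lowest repair genes, with 20 against 11 and 14 against 55 counts, and 0% of their exonic bases are shared either. Reads per exon were not analysed here, and the cause was not tested.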
